A study of Populus tremula x Populus alba with 6 samples.

Results

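The peaks described here are those that the authors' annotation places just downstream of a gene, meaning within 3 kb past an annotated gene end and outside any promoter, exon or intron. They were taken from the annotation column alone, as every peak whose entry begins with "Downstream". There were 564 such peaks among 18975 in the P. alba table (2.97%, 95% exact interval 2.74 to 3.22%) and 499 among 17040 in the P. tremula table (2.93%, 2.68 to 3.19%), together 1063 of 36015 peaks. The share did not differ detectably between the tables (odds ratio 1.02, 95% interval 0.899 to 1.15, Fisher's exact test, two-sided, p = 0.827), a comparison that treats peaks as independent although many sites stand in both tables.

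The peaks come from chromatin immunoprecipitation sequencing (ChIP-seq) of PtrbHLH011 carrying a 10xMyc tag, a transcription factor of the basic helix-loop-helix (bHLH) family. All 6 libraries were made from leaf mesophyll protoplasts, wall-less cells, of a poplar hybrid (Populus tremula x Populus alba) that transiently expressed the tagged factor: 3 ChIP libraries with anti-Myc antibody and 3 Input libraries with none. Both groups carried the tagged factor, which was introduced into the cells and not expressed from its own locus, so no library stands for cells without it. The tables give 1 value per peak and none per library, and what went into them from each replicate is not given in the sources used here, so no spread between replicates can be attached to any value. Each table refers to 1 parental chromosome set of the hybrid, and positions are counted from 1 on that set.

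Proteins of the bHLH family bind DNA as dimers, usually at the short E-box motif. In Arabidopsis the factor named bHLH11 is known as a negative regulator of iron uptake genes. The stretch past a gene end holds the sites of transcript cleavage and termination, and in compact genomes it can also lie close to the neighbouring gene. A peak there is therefore not tied by position alone to the gene whose number it carries.

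Most peaks of the downstream class carried a gene on the minus strand. The assigned gene was on the minus strand for 490 of the 564 peaks on P. alba (86.9%, exact interval 83.8 to 89.6%) and for 439 of the 499 on P. tremula (88.0%, exact interval 84.8 to 90.7%). Over all peaks the minus-strand share was 49.8% and 50.3%, in promoter peaks it was 49.7% and 49.9%, and in distal intergenic peaks, the class for peaks that the annotation gives to no gene part, promoter or downstream stretch, it was 46.1% and 47.3%. The strand was not among the values used to choose the peaks, but the authors' annotation did choose them, so the shares are given as a description with no test.

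The distances in the tables show where the matching plus-strand peaks stood. Summits 1 to 3000 bp past the end of their assigned gene numbered 1063 at minus-strand and 1121 at plus-strand genes of P. alba, and 972 and 971 on P. tremula. Of those at minus-strand genes, 380 on P. alba and 333 on P. tremula were in the downstream class, and 0 in each table were in the distal intergenic class. Of those at plus-strand genes, 55 and 42 were in the downstream class, and 341 and 308 were in the distal intergenic class. Promoter, exon and intron labels were spread evenly by comparison, with promoter labels at 56.4% of minus-strand and 55.8% of plus-strand summits on P. alba, and at 57.3% and 55.7% on P. tremula. The downstream class thus held 56.1% of the 776 intergenic P. alba peaks and 54.9% of the 683 intergenic P. tremula peaks whose summits lay within 3 kb past the end of the assigned gene. The reason for the strand difference in the annotation was not tested.

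**Figure D1:**
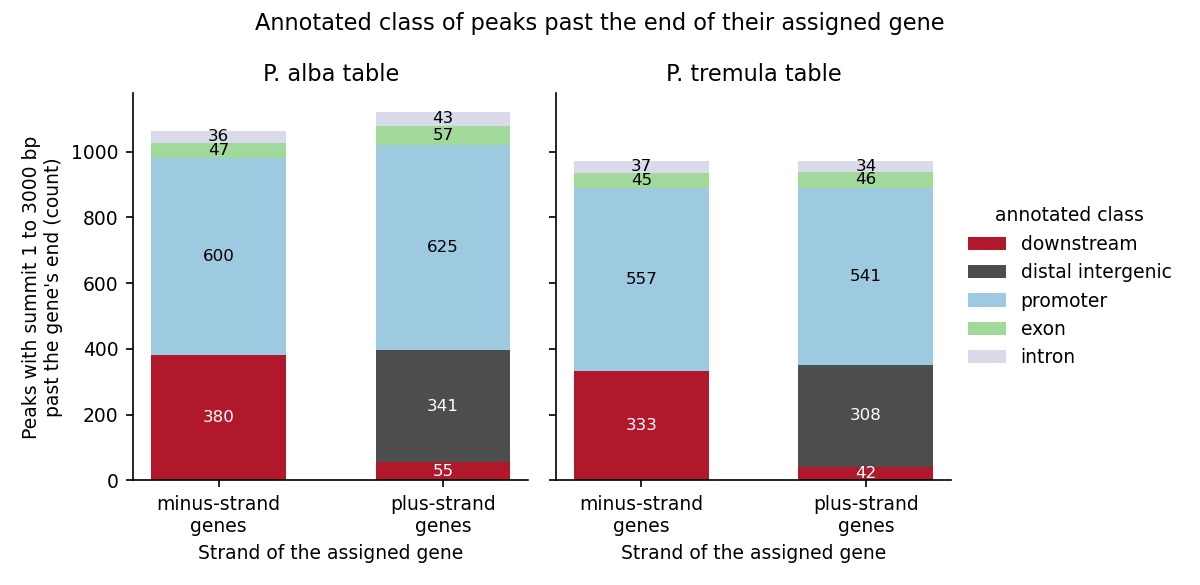
Number of peaks (y axis, count) with a summit 1 to 3000 bp past the end of the assigned gene, by the strand of that gene (x axis) and by the authors' annotated class (colours), in the P. alba (left) and P. tremula (right) tables. Minus-strand bars hold 380 and 333 downstream and 0 distal intergenic peaks, and plus-strand bars hold 55 and 42 downstream and 341 and 308 distal intergenic peaks.

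The few downstream peaks with a plus-strand gene often carried a distance label that did not match their assigned gene. The class has 3 labels, for under 1 kb, 1 to 2 kb and 2 to 3 kb past a gene end. For peaks within 3 kb past a minus-strand assigned gene, the label equalled the distance from that gene's end to the nearer peak edge in 376 of 380 P. alba peaks (98.9%) and 331 of 333 P. tremula peaks (99.4%). For those past a plus-strand gene it did so in 22 of 55 (40%) and 18 of 42 (42.9%). A minus-strand gene end within 3 kb was listed elsewhere in the same table for 24 of these 55 and 19 of these 42 peaks, and for 0 of the 341 and 0 of the 308 plus-strand peaks left in the distal class. The tables list only genes that carry a peak (13403 and 12487), so other neighbours could not be looked up.

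The gene named for a downstream peak was not always the gene it lay behind. The assigned gene is the one with the nearest start, and the summit lay 1 to 3000 bp past its end in 435 peaks on P. alba (77.1%, interval 73.4 to 80.5%) and in 375 on P. tremula (75.2%, interval 71.1 to 78.9%). It lay upstream of the assigned gene in 90 (16.0%, 13.0 to 19.2%) and 85 (17.0%, 13.8 to 20.6%), of which 87 and 81 belonged to minus-strand genes. In the other 39 peaks of each table the summit was more than 3 kb past the assigned end, at most 5507 bp on P. alba and 5484 bp on P. tremula. Some of these still lay behind their assigned gene by the nearer peak edge, which the labels follow. The downstream peak with the highest pileup had its summit 3031 bp and its edge 2852 bp past the end in each table. The shares by summit are therefore lower than shares by edge would be. By the summit, 129 and 124 peaks were not within 3 kb past their assigned gene. Of these, 71 and 66 had a listed minus-strand gene end within 3 kb of the nearer peak edge. A listed plus-strand end alone was found for 0 and 1, and for 58 and 57 the tables list no gene end that near. The listed ends include that of the assigned gene itself, which can lie within 3 kb of the edge though not of the summit. Ends of other genes were not counted apart. No downstream summit lay inside its assigned gene, and the closest to the assigned start was 3023 bp away on P. alba and 3064 bp on P. tremula. That gap is set by the annotation, which gives promoters, to 3 kb on either side of a start, before any other class.

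Summits stood throughout the 3 kb past the end. Among peaks within 3 kb past the assigned end, the median summit on P. alba stood at 1640 bp, with quartiles of 908 and 2386 bp. On P. tremula it stood at 1634 bp, with quartiles of 947.5 and 2409 bp. Counts at minus-strand genes were highest in the farther bins: 45 P. alba summits lay in the first 500 bp and 89 at 2000 to 2500 bp, against 42 and 75 on P. tremula. With genes of 3 kb or more only, the order was turned round, and the part of gene length and of the promoter limit in this was not tested. There, the first 500 bp held 36 P. alba summits and the last 500 bp held 17, and on P. tremula they held 36 and 13. The plus-strand distal peaks at genes of that length had 30 in the first bin and 24 in the last on P. alba, and 29 and 27 on P. tremula. Genes assigned under the nearest label were long (median 3402 bp on P. alba and 3595 bp on P. tremula for the under 1 kb label). Those assigned under the farthest label were short (1822 and 1794 bp). These medians include assigned genes that the peak did not lie behind. A peak close behind a short gene lies within 3 kb of its start and is a promoter peak, so the annotation itself ties label to gene length.

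**Figure D2:**
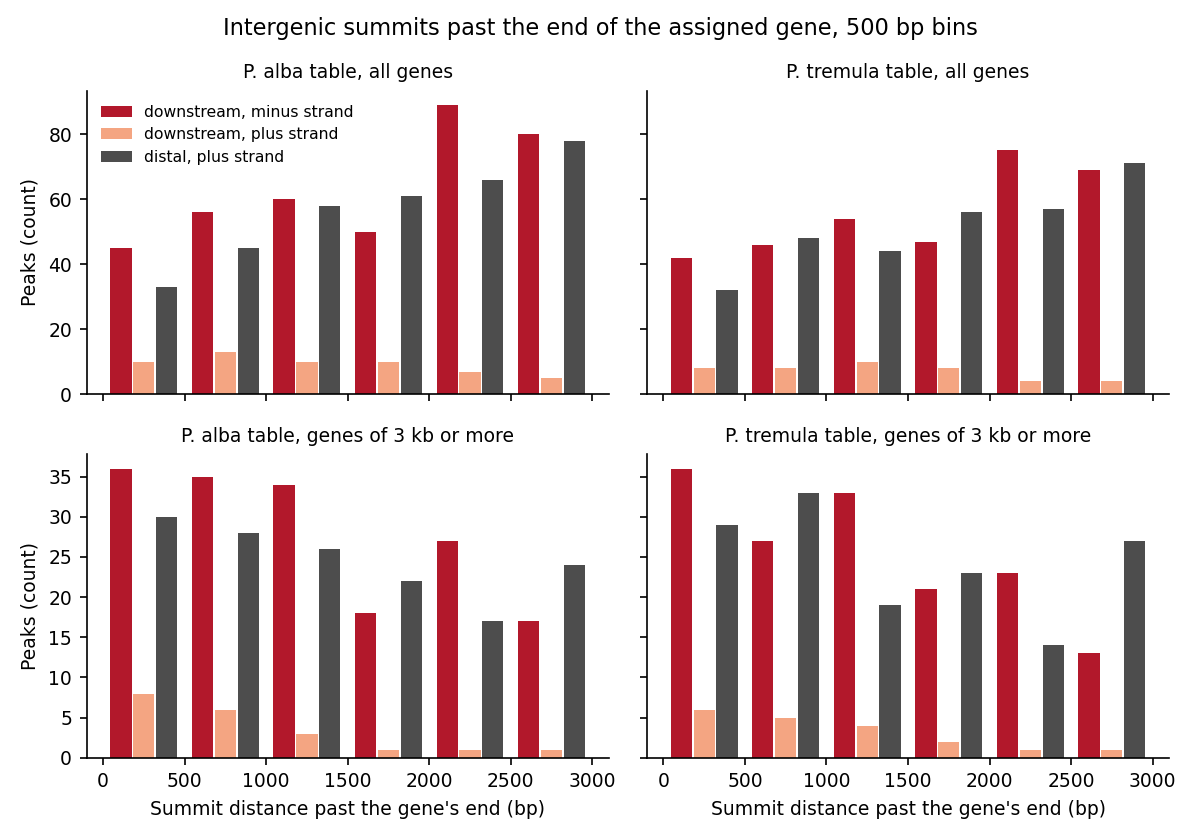
Number of intergenic peaks (y axis, count) in 500 bp bins of the summit's distance past the assigned gene's end (x axis, bp), for all genes (top) and genes of 3 kb or more (bottom), in the P. alba (left) and P. tremula (right) tables. Minus-strand downstream peaks are more numerous in the far bins over all genes (45 in the first and 80 in the last P. alba bin) and less numerous there at long genes (36 and 17).

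The downstream peaks were mostly shallow, as were the tables as a whole. The median summit held 7 reads in each table, as over all peaks, and 427 P. alba (75.7%) and 380 P. tremula peaks (76.2%) held fewer than 10, beside 78.5% and 77.7% of all peaks. Pileup is the number of reads covering the summit, and the fold is taken here as pileup over local background with 1 read added to each, the caller's usual form, which the tables do not state. The backgrounds given below are recovered from the fold and the pileup on that assumption. The median fold on P. alba was 3.52, with quartiles of 3.24 and 4.02, and on P. tremula 3.53, with quartiles of 3.08 and 4.03. The medians over all peaks were 3.52 and 3.53, and many shallow peaks share the same fold. The median length was 122 bp in each table, against 124 and 128 bp over all peaks. At 56.9% and 55.5% of downstream peaks the recovered background was within 0.01 reads of its floor, 0.989 and 0.985 reads, beside 58.9% and 56.7% of all peaks, and the fold there follows the summit count alone.

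A fold of 5 or more was reached by 53 P. alba downstream peaks (9.40%, 7.12 to 12.1%) and 54 on P. tremula (10.8%, 8.23 to 13.9%), against 8.21% and 8.08% of all peaks. Compared with all other peaks of the table the odds ratios were 1.17 on P. alba (0.874 to 1.55, Fisher's exact p = 0.311, adjusted p = 0.816) and 1.40 on P. tremula (1.05 to 1.86, Fisher's exact p = 0.0297, adjusted p = 0.156). Adjustment was by Benjamini-Hochberg over the 21 such tests made, and neither passed 0.05. With a fold of 4 in place of 5, the P. alba odds ratio was 1.31 and passed (1.10 to 1.56, Fisher's exact adjusted p = 0.0222, in a range of 0.0222 to 0.932 over the alternatives tried). A fold of 10 or more was found at 10 peaks of P. alba (1.77%, interval 0.853 to 3.24%) and 6 of P. tremula (1.20%, interval 0.443 to 2.60%), against 0.78% and 0.628% of all peaks. These tests measure counting error within a table, not variation between replicates.

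The caller's q value was at or under 0.05 for 435 downstream peaks of P. alba (77.1%, exact interval 73.4 to 80.5%) and 373 of P. tremula (74.7%, exact interval 70.7 to 78.5%), against 72.6% and 72.9% of all peaks. The odds ratios against all other peaks were 1.28 (1.05 to 1.56, Fisher's exact p = 0.0145, adjusted p = 0.101) and 1.10 (0.899 to 1.35, Fisher's exact p = 0.358, adjusted p = 0.835). At q of 0.01 or less stood 252 (44.7%) and 218 (43.7%) of them, against 39.8% and 40.1% of all peaks. The median −log10 q was 1.62 and 1.48, against 1.44 and 1.42 over all peaks.

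Set beside the distal intergenic class as a whole, downstream peaks were shallower. Summits under 10 reads made up 75.7% of the class on P. alba (interval 72.0 to 79.2%) and 76.2% on P. tremula (interval 72.2 to 79.8%), against 59.9% (58.5 to 61.2%) and 58.0% (56.6 to 59.5%) of distal peaks, and 84.8% and 84.2% of promoter peaks. Those intervals of the downstream and distal classes do not overlap, and this difference was not tested further. The share was not worked out for distal peaks within 3 kb past a plus-strand gene. Their median summit held 7 reads, as did that of the minus-strand downstream peaks. Folds of 5 or more made up 9.40% and 10.8% of downstream and 12.0% and 11.4% of distal peaks, differences that did not pass the test (odds ratio 0.763, 0.568 to 1.02, Fisher's exact p = 0.0730, adjusted p = 0.295 on P. alba, and 0.942, 0.700 to 1.27, Fisher's exact p = 0.766, adjusted p = 0.919 on P. tremula). Exon peaks outside promoters reached that fold at 2.26% and 1.91%, and introns at 5.26% and 4.52%.

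**Figure D3:**
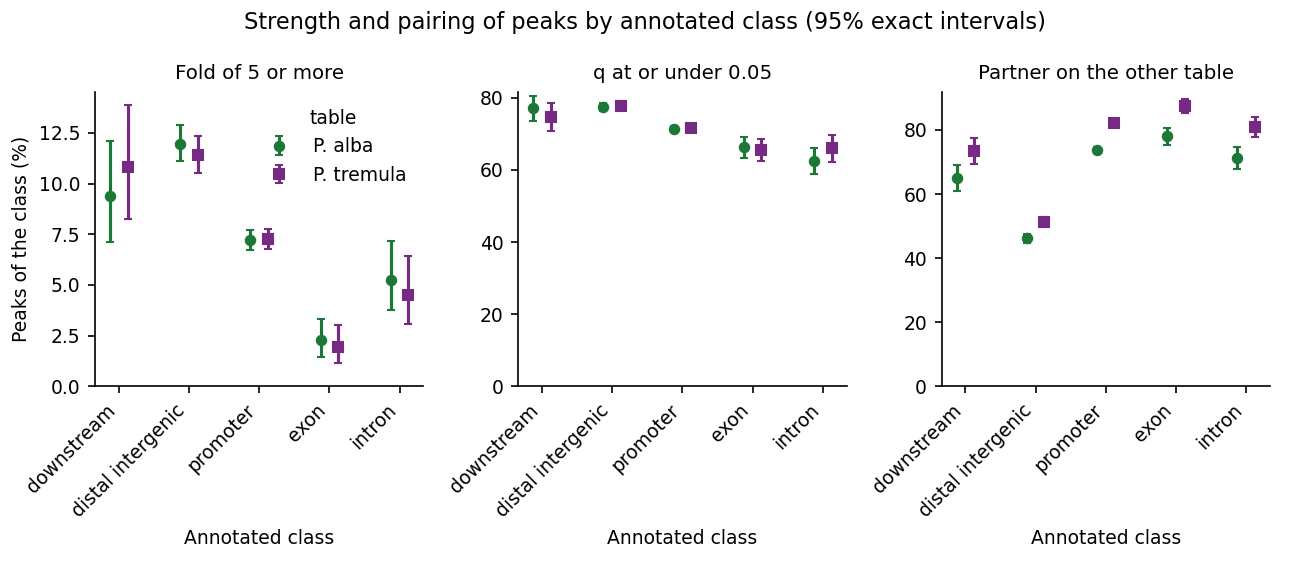
Share of peaks (y axis, percent, with 95% exact binomial intervals) that reach a fold of 5 (left), have a q of 0.05 or less (middle) or have a partner in the other table (right), by annotated class (x axis), for the P. alba table (circles) and the P. tremula table (squares). Downstream peaks stand at 9.40% and 10.8% for the fold, at 77.1% and 74.7% for q and at 65.1% and 73.5% for partners, the last above distal intergenic peaks at 46.2% and 51.4%.

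The 3 distance labels did not separate by strength. Folds of 5 or more made up 10.2% of the 177 P. alba peaks labelled under 1 kb, 10.0% of the 160 at 1 to 2 kb and 8.37% of the 227 at 2 to 3 kb. On P. tremula they made up 10.0% of 150, 12.2% of 147 and 10.4% of 202. The nearest label against the farther ones gave an odds ratio of 1.14 on P. alba (0.626 to 2.07, Fisher's exact p = 0.645, adjusted p = 0.919) and 0.883 on P. tremula (0.471 to 1.66, Fisher's exact p = 0.755, adjusted p = 0.919), intervals wide enough to hold a difference of 1.5 times in either direction. Just inside the 3 kb limit, 91 P. alba and 82 P. tremula peaks with an edge 2500 to 3000 bp past a minus-strand gene had a median fold of 3.52 and 3.53. Just outside it, at 3001 to 3500 bp, 78 and 62 distal peaks had 3.52 and 3.54.

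No difference in strength passed the test between the minus-strand downstream peaks and the plus-strand peaks left in the distal class. Folds of 5 or more made up 10.0% of the 380 minus-strand and 10.9% of the 341 plus-strand peaks on P. alba (odds ratio 0.913, 0.566 to 1.47, Fisher's exact p = 0.716, adjusted p = 0.919). On P. tremula the shares were 11.7% of 333 and 10.1% of 308 (odds ratio 1.19, 0.719 to 1.95, Fisher's exact p = 0.528, adjusted p = 0.919). The share with q at or under 0.05 was 77.9% of the minus-strand and 72.1% of the plus-strand peaks on P. alba (odds ratio 1.36, 0.970 to 1.91, Fisher's exact p = 0.0842, adjusted p = 0.295), and 75.4% and 74.4% on P. tremula (1.06, 0.739 to 1.51, Fisher's exact p = 0.785, adjusted p = 0.919). Median summits held 7 reads in both sets of both tables. The intervals are wide, so equality is not shown.

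Most downstream peaks had a counterpart at the same place on the other parental chromosomes. Peaks of the 2 tables were paired when they carried the same gene and their summits' distances from its start differed by at most 100 bp. Peaks at the same site that carried different genes could not be paired. Partners were found for 367 downstream peaks of each table, 65.1% on P. alba (exact interval 61.0 to 69.0%) and 73.5% on P. tremula (exact interval 69.4 to 77.4%), against 66.3% and 73.8% of all peaks. Against all other peaks the odds ratios were 0.946 (0.794 to 1.13, Fisher's exact p = 0.557, adjusted p = 0.919) and 0.987 (0.806 to 1.21, Fisher's exact p = 0.918, adjusted p = 0.932). With a tolerance of 25 bp instead of 100 bp, 206 downstream peaks of each table were paired (36.5% and 41.3%), fewer than the 48.8% and 54.3% of all other peaks (odds ratio 0.603, Fisher's exact adjusted p = 6.00e-08, and 0.591, Fisher's exact adjusted p = 7.18e-08). Over the alternatives tried, the adjusted p had its highest value at 1 for P. alba and 0.932 for P. tremula. Downstream summits stood farther from the assigned start, at a median of 4205 and 4285 bp against 2135 and 2123 bp for all other peaks, and the part of that distance in the lower share was not tested.

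Distal intergenic peaks had partners less often (46.2% and 51.4% in the P. alba and P. tremula tables). The odds ratio of the downstream against the distal class was 2.17 (1.81 to 2.60, Fisher's exact adjusted p = 1.83e-16) and 2.63 (2.14 to 3.24, Fisher's exact adjusted p = 1.39e-20). Distal summits stood farther still from the assigned start, at a median of 7671 and 7711 bp, and the part of that distance in the difference was not tested. The distal peaks within 3 kb past a plus-strand gene were paired at 63.6% and 69.8%, beside 60.8% and 69.4% of the minus-strand downstream peaks (with odds ratios of 0.886, 0.655 to 1.20, Fisher's exact p = 0.443, and 0.980, 0.699 to 1.37, Fisher's exact p = 0.932, adjusted p = 0.919 and 0.932).

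Partners nearly always had the same class, which the pairing by gene and distance largely fixes. Of the 367 partners, 363 were downstream peaks too (98.9%, 97.2 to 99.7%), 356 of them under the same distance label, and 3 were distal intergenic and 1 promoter, in each direction. Among paired peaks of the other classes the same-class share was 97.9 to 99.8% on P. alba and 97.1 to 99.7% on P. tremula. The P. alba peak on chromosome 1 at chr1:25137466-25137656 lay 3157 bp from its gene's start and was downstream, and its partner 3074 bp from that start was a promoter peak. Among the 363 pairs the summit pileups were identical in 267 (73.6%, 68.7 to 78.0%), beside 76.6% of all 12576 pairs. Whether the same reads stand behind both peaks of a pair was not tested, so the tables are not treated as independent. Across the downstream pairs Spearman's rho of the folds was 0.775 and the log2 ratio of the P. alba to the P. tremula fold had an SD of 0.21, beside 0.828 and 0.18 over all pairs. A difference of more than 1.5 times was found in 10 downstream pairs and in 249 of all pairs.

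**Figure D4:**
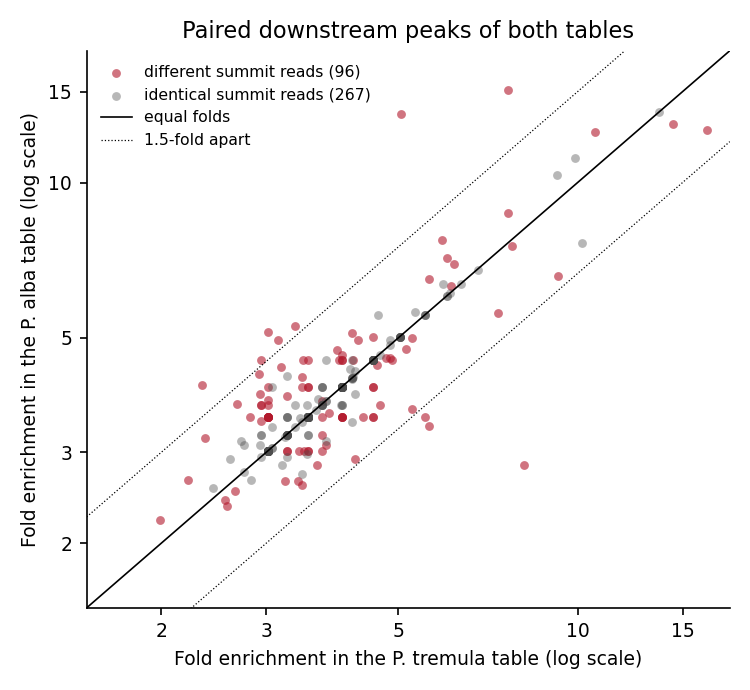
Fold enrichment of 363 paired downstream peaks in the P. alba table (y axis, log scale) against the P. tremula table (x axis, log scale), each point 1 pair, grey where the summit reads are identical (267 pairs) and red where they differ (96 pairs). Most pairs lie between the dotted lines 1.5 times apart, and 10 lie outside them.

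Of those 10 pairs, 7 had the higher fold on P. alba and 3 on P. tremula. The widest gap was on scaffold_28, where the P. alba peak (323820 to 324184) reached 2.84-fold with 11 reads and the P. tremula peak (323699 to 323946) reached 8.12-fold with 37 reads (log2 ratio -1.52). Near the top of chromosome 12, the P. alba peak (chr12:66220-66510) had 26 reads over a background of 0.989 reads and a fold of 13.6, and the partner on P. tremula (chr12:66246-66431) had 168 reads over 32.4 reads and a fold of 5.06. The deeper peak thus had the lower fold. On chromosome 1, the P. alba peak at chr1:15252314-15252418 reached 15.1-fold and the P. tremula partner at chr1:15256197-15256299 reached 7.65-fold, with close pileups of 29 and 26 reads over backgrounds of 0.989 and 2.53 reads. On chromosome 16, a P. alba peak (chr16:5798672-5798950) had 63 reads and a fold of 4.06, and the P. tremula peak (chr16:5799133-5799247) had 24 reads and 2.35. On chromosome 3, a P. alba peak (chr3:3541726-3541873) had 10 reads and a fold of 5.13, and the P. tremula peak (chr3:3540683-3540787) had 5 reads and 3.02. There is no replicate to check these differences against.

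The strongest downstream peaks were of moderate fold, and 7 of the 10 genes with the highest fold were the same in both tables. A pair on chromosome 2 had a fold of 12.6 with 35 reads on P. alba (chr2:6871102-6871292) and 16.5 with 42 reads on P. tremula (chr2:6869051-6869227), where it was the highest. It carried the gene Potri.002G095700, but lay 3503 bp upstream of that gene's start on P. alba and 3504 bp on P. tremula, so it lay past the end of no gene that the tables assign to it. A second pair on chromosome 2 lay 1139 and 1148 bp past the end of Potri.002G070200, a minus-strand gene, with 60 reads at both summits and folds of 13.7 in each (P. alba chr2:4814795-4815021, P. tremula chr2:4814104-4814334). On chromosome 14, a pair at Potri.014G103400 had 51 reads and a fold of 13.0 on P. alba (chr14:8122418-8122694) and 50 reads and 14.4 on P. tremula (chr14:8120227-8120489). It was labelled under 1 kb, although it lay 3256 and 3319 bp past the end of this plus-strand gene.

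Other strong sites stood on chromosomes 1, 2 and 8. The pair behind a minus-strand gene on chromosome 1 had 59 reads in each table and folds of 11.1 (P. alba, chr1:6126635-6126834) and 9.90 (P. tremula, chr1:6127132-6127331), each 980 bp past the gene's end. The longest downstream peak was 670 bp on P. alba (chr1:17611661-17612330) and 664 bp on P. tremula (chr1:17613643-17614306), with 57 reads in each and folds of 10.3 and 9.22. A pair on chromosome 8 lay 5218 and 5193 bp upstream of its assigned gene, with folds of 12.5 (chr8:10553420-10553587) and 10.7 (chr8:10555310-10555459). On chromosome 2 a peak had 66 reads and a fold of 10.6 on P. alba (chr2:1823934-1824222), and one with 64 reads and 9.31 stood on P. tremula (chr2:1824701-1824956). These were not paired by distance from the gene's start, 10081 and 9979 bp, though both edges lay 2778 bp past the gene's end.

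Some of the strongest had no partner, or a partner outside the 10 highest folds of the other table. A P. alba peak on chromosome 13 (chr13:12126731-12126865) had 31 reads and a fold of 13.4, 5901 bp upstream of its assigned gene. That gene carried no P. tremula peak, and a P. tremula peak at the same site under another gene was not looked for. A P. tremula downstream peak on chromosome 3 (chr3:21260632-21260756) had 28 reads and a fold of 10.2, and no partner. Its gene carried 1 P. alba peak, with a fold of 4.02, which was not paired with it. On chromosome 5 a pair had 49 reads at both summits and folds of 7.64 on P. alba (chr5:9636614-9636854) and 10.2 on P. tremula (chr5:9633038-9633209). On chromosome 14 another had 6.60 on P. alba (chr14:2182600-2182720) and 9.27 on P. tremula (chr14:2181716-2181852).

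The deepest downstream peaks stood over a deep background. The highest pileup was 1667 reads on P. alba (chr11:7198360-7198750) and 954 on P. tremula (chr11:7197821-7198194), both behind Potri.011G074900 with the nearer edge 2852 bp past its end. Their folds were 2.64 and 3.23 over backgrounds of 630 and 295 reads. Downstream peaks of 100 reads or more numbered 7 on each set of chromosomes, with a median fold of 3.37 on P. alba and 3.65 on P. tremula. The pair on chromosome 14 (chr14:13079986-13080214 on P. alba, chr14:13076308-13076486 on P. tremula) held 545 and 298 reads at folds of 3.79 and 3.03. A pair on chromosome 2 (chr2:21232198-21232334 and chr2:21229399-21229542) held 400 and 457 reads at 4.94 and 4.28, and lay 6685 and 6693 bp upstream of its assigned gene. On chromosome 1, the P. alba peak at chr1:32856684-32856906 held 518 reads at a fold of 3.37, and its partner held 125 reads at 5.63. The P. alba peak at chr13:14813082-14813182 had 317 reads and a fold of 1.69, and the P. tremula peak at chr13:14801526-14801606 had 250 reads and 1.60, the lowest downstream folds of each table.

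The downstream peaks belonged to 536 genes on P. alba and 479 on P. tremula. A gene carried at most 3 of them, and 26 and 20 genes carried 2 or more. In both tables a downstream peak was assigned to 383 genes, which is 71.5% of the P. alba and 80.0% of the P. tremula genes. Of the 153 genes with one on P. alba alone, 68 had a peak of another class on P. tremula, and of the 96 with one on P. tremula alone, 41 had one on P. alba. The same overlap was not worked out for all genes with a peak, so it is not known whether these counts are particular to the class. Among all peaks, 66.3% on P. alba and 73.8% on P. tremula had a partner. A promoter peak was also assigned to 159 of the 536 genes (29.7%, 25.8 to 33.7%) and 125 of the 479 (26.1%, 22.2 to 30.3%). The same share was 26.9% (25.4 to 28.4%) and 24.1% (22.6 to 25.6%) for genes with a distal intergenic peak. The tables pair no identifier with a gene name or function, so the genes behind these peaks could not be grouped by what they do, and no gene sequence was used here.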

How the data were processed

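ChIP-seq peaks of Myc-tagged PtrbHLH011 were analysed from 2 tables, one for each parental chromosome set of the hybrid. Per the submitters' processing notes, the tools were ChIPseeker 1.18.0, MACS2 2.2.7.1 and BWA 0.7.17.2. Not given in the sources used here are the build, the annotation release, the peak calling settings, the pooling of replicates and whether Input served as control. The depth of the libraries is likewise unknown, and all peak names carry 1 tag that matches no library label.

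Per the file headers, the authors deposited for each peak its pileup (signal as reads over the summit), its enrichment as a fold ratio against local background, −log10 q values, positions and lengths in bp, an annotated class and a gene identifier with that gene's coordinates and strand. Each peak stands in 2 rows of a deposited table and was counted once. No per-sample column was left aside (0).

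Distances were computed from summit and gene coordinates. The background was recovered as (pileup + 1) / fold − 1, on the assumption, not stated in the tables, that the caller added 1 read to pileup and background, and a background within 0.01 reads of the lowest one in the table was counted as at the floor. Peaks were paired between tables by gene and by distance from its start within 100 bp, each used once, closest first. Shares have exact Clopper-Pearson 95% intervals, and groups of peaks were compared by Fisher's exact test, two-sided, with Benjamini-Hochberg adjustment over 21 tests. Intervals and p-values cover counting error only and treat peaks as independent. Pairing, share tests and median intervals were tested on simulated data. Python 3.11.15, pandas 2.3.3, NumPy 2.4.6, SciPy 1.17.1 and matplotlib 3.10.9 were used.

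Named peaks were, in each table, the 10 with the highest fold and the 5 with the highest pileup, and the 5 pairs with the largest difference in fold. The peaks, thresholds and tests were chosen with earlier results of these data known. The comparisons with distal intergenic peaks, and of minus-strand downstream with plus-strand distal peaks, were added after seeing the data. No genome sequence was used here.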

Additional observations from a re-analysis of the deposited data

How the results depend on the processing

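No paired analysis was possible because no deposited value belongs to a single library. Leaving out a replicate was likewise not possible. Of 115 alternatives, 87 were counted as unchanged. For an odds ratio this meant the same direction and the same side of the threshold, whatever its size. For a median or share it meant a value inside the interval of the reported one. For a count the limit was looser and allowed wide gaps. With a fold threshold of 10 the odds ratio was 2.39 on P. alba and 1.98 on P. tremula, against 1.17 and 1.40 reported. Neither passed, and both were counted as unchanged. The class count was 252 on P. alba and 218 on P. tremula at q of 0.01 or less, 177 and 150 with the under 1 kb label alone, and 2184 and 1943 when every peak with a summit 1 to 3000 bp past its assigned gene's end was taken whatever its label. With intergenic peaks only, an alternative added after seeing the data, it was 776 and 683, counted as unchanged beside the 564 and 499 reported. With a fold threshold of 4 the P. alba odds ratio was 1.31 and passed. The odds ratio of having a partner was 0.603 and 0.591 in the P. alba and P. tremula tables at a tolerance of 25 bp, and passed. On P. tremula it changed side to 1.03 at q of 0.05 or less, 1.06 at q of 0.01 or less and 1.05 with pairing by the gene's end, each with an interval that holds equality. Medians moved with the q threshold, which by its construction drops shallow peaks. At q of 0.05 or less the median fold was 3.77 and 3.72, the length 130 and 131 bp and the −log10 q 2.18 and 2.17. At q of 0.01 or less the fold was 4.18 and 4.04, the pileup 9 reads in each table, the length 142.5 and 157.5 bp, the −log10 q 3.05 and 3.04 and the background 1.15 and 1.15 reads. Most summits held fewer than 10 reads, and depth was not varied.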

Other observations

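Downstream peaks were found on all 19 chromosomes of both sets, and 21 on P. alba and 20 on P. tremula stood on unplaced scaffolds. Their share of a chromosome's peaks was lowest on chromosome 9 in both tables, at 1.91% (95% exact interval 1.02 to 3.25%) on P. alba and 1.94% (1.00 to 3.36%) on P. tremula. It was highest on chromosome 17 of P. alba, at 4.07% (2.70 to 5.87%), and on chromosome 10 of P. tremula, at 3.82% (2.76 to 5.15%). The intervals overlap, and the chromosomes were not compared by a test.

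Another peak lay within 1000 bp of 90 downstream peaks on P. alba (16.0%, 13.0 to 19.2%) and of 57 on P. tremula (11.4%, 8.77 to 14.5%). The share was 19.4% and 17.1% for distal intergenic peaks and 17.8% and 15.8% for all peaks. Of the downstream peaks without a partner, 197 on P. alba and 132 on P. tremula, the assigned gene had no peak of any class in the other table for 87 and 57. A downstream peak stood elsewhere at the same gene for 43 and 35. Unpaired peaks reached a fold of 5 or more in 12 of 197 cases on P. alba (6.09%) and 13 of 132 on P. tremula (9.85%), against 41 of 367 paired ones (11.2%) in each table. Over all peaks, paired or not, that share was 8.21% and 8.08%. Neither this split nor the counts at the assigned gene were worked out for all peaks, and the differences were not tested.

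By position, downstream peaks upstream of their assigned gene had partners in 69 of 90 cases on P. alba (76.7%, 66.6 to 84.9%) and 70 of 85 on P. tremula (82.4%, 72.6 to 89.8%). Those within 3 kb past the assigned end had partners in 268 of 435 (61.6%, 56.9 to 66.2%) and 267 of 375 (71.2%, 66.3 to 75.7%). Folds of 5 or more made up 5 of those 90 and 7 of those 85 upstream peaks, against 43 of 435 and 43 of 375 past the end. These groups were looked at after the data had been seen and were not tested.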
